A study of Mus musculus with 39 samples.

Results

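The 10 genes described here encode the machinery of MHC class I antigen presentation: H2-K1, H2-D1, B2m, Tap1, Tap2, Tapbp, Psmb8, Psmb9, Psmb10 and Nlrc5. They were taken by symbol from a table of 39676 genes, in which each of the 10 had 1 row, and all 10 passed the filter on low counts in every comparison. The tumours were grown from AB1-HA, a mouse mesothelioma cell line carrying the influenza haemagglutinin gene, inoculated under the skin of both flanks of BALB/c mice of either sex aged 8-10 weeks. RNA came from 39 whole tumours, 1 of each bilateral pair by the study's methods, resected on day 9 after inoculation. Of these, 10 came from PBS control mice, 9 from mice treated with tretinoin (5 daily doses of 5 mg/kg from day 4), 10 from mice treated with immune checkpoint therapy (ICT, 100 µg anti-CTLA-4 with 100 µg anti-PD-L1 from day 7) and 10 from mice treated with both. The dose and the number of doses are those of the deposited labels, and parts of the study's text differ from them. By the labels, the tretinoin+ICT group held 6 responders and 4 non-responders, that is mice whose remaining tumour was cured or grew out.

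Class I molecules show peptides from inside the cell to CD8+ T cells. The proteasome cuts proteins into peptides, the TAP transporter carries these into the endoplasmic reticulum, and tapasin helps load them onto a heavy chain paired with beta-2 microglobulin. Interferon gamma induces the genes of this pathway, including 3 catalytic subunits that replace the constitutive ones to form the immunoproteasome, and the transactivator NLRC5 acts on the promoters of class I genes.

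These were bulk samples from a single cell line, so the tumour's own cells and the cells of the host were read together. Genes that mark leukocytes, macrophages and fibroblasts were abundant in PBS tumours, with mean normalised counts, scaled to library size (CPM), of 250.7 for Ptprc (CD45), 578 CPM for Csf1r and 2292 CPM for Col1a1. Defining markers of mesothelium were near 0, with a mean of 0.607 CPM for Wt1, 0.131 CPM for Calb2 and 0.00601 CPM for Upk3b, whereas Pdpn stood at 67.1 CPM. More cells of a type and more RNA per cell cannot be told apart in such samples. Total counts per tumour ran from 14033046 to 37951183, and the 10 genes together took 0.405 to 1.25% of them.

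The first digit of a tumour's name divides each treatment into 2 series, digits 1 and 5 for PBS, 3 and 7 for tretinoin, 6 and 8 for ICT, and 2 and 4 for tretinoin+ICT. No series holds tumours of more than 1 treatment, so series and treatment cannot be told apart, and each comparison of treatments was also made within the 4 pairs of series.

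Of the 10 genes, 8 lie on chromosome 17 or chromosome 2 and 2 on chromosome 8 (GENCODE M21, GRCm38). H2-K1 (ENSMUSG00000061232.15, chromosome 17, 33996017 to 34000347, minus strand) and H2-D1 (ENSMUSG00000073411.11, chromosome 17, 35262730 to 35267499, plus strand) lie in the MHC. Tap1 (chromosome 17, 34187553 to 34197225, plus strand) and Psmb9 (chromosome 17, 34181987 to 34187764, minus strand) stand head to head, and their exons overlap by 212 bases on opposite strands. Psmb8, Tap2 and Tapbp lie on the same chromosome, B2m (ENSMUSG00000060802.8, 122147686 to 122153083, plus strand) on chromosome 2, and Psmb10 and Nlrc5 (ENSMUSG00000074151.13, 94434356 to 94527272, plus strand) on chromosome 8. The strand mode and the treatment of reads that align to several places are not given in the sources used here. Of the 100-base stretches of exon sequence, 14.8% in Tapbp, 8.05% in Psmb8, 4.99% in Tap2, 3.59% in H2-D1, 2.73% in Psmb9, 1.93% in Tap1 and 0.957% in H2-K1 also occur in another gene, so that part of their counts is uncertain. None did in B2m, Psmb10 or Nlrc5. BALB/c mice carry the d haplotype of the MHC and the reference genome the b haplotype, and the effect of this on the counts of H2-K1 and H2-D1 was not tested.

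RefSeq promoter windows (GRCm38.p6) were at hand for 8 of the 10 genes, and 7 of these matched any of the short motifs named below. In Tap1, Tapbp and Psmb9 the only matches were to the CCAAT box, which is common among all promoters. The share of all promoters that match any of these motifs is not given here, so the count of 7 has no background to stand beside. Stretches of 5 of the 8 genes are shown, the 4 with an interferon-related motif and Psmb9 for the box it shares with Tap1. Capitals mark matches on either strand, within 250 bases before the transcription start, to AANNGAAA (the core bound by interferon regulatory factors), TTCNNNGAA (the gamma-activated site) or CCAAT (the box bound by NF-Y). The first of these was settled after 2 longer forms had been tried on these windows.
H2-K1 (chr17:34000348-34000452, minus strand): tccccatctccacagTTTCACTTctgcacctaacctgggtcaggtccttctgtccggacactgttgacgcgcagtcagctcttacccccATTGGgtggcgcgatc
H2-D1 (chr17:35262929-35263060, plus strand): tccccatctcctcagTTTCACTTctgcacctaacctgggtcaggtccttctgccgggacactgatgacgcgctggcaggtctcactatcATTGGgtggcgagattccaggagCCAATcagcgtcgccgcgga
B2m (chr2:122147535-122147653, plus strand): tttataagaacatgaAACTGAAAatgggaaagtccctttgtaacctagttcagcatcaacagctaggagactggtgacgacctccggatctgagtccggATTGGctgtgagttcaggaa
Psmb8 (chr17:34198083-34198121, plus strand): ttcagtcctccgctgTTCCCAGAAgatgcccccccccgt
Psmb9 (chr17:34187331-34187353, minus strand): cgcgcgcagccgctgATTGGaaa

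The interferon regulatory factor core occurred in the 3 chain genes, at positions -90 to -83 from the start in H2-K1, -150 to -143 in H2-D1 and -137 to -130 in B2m. In both heavy chain genes the same 8 letters were matched. This core was found in 21.6% of 27025 promoters of the same length. The gamma-activated site occurred in Psmb8 alone of the 8, at positions -97 to -89, and in 7.18% of all promoters. A CCAAT box was found in H2-K1, H2-D1, B2m, Tap1, Tapbp and Psmb9, and in 34.5% of all promoters. The box in Psmb9 is the one in Tap1, read from the other strand of their shared promoter. None of the 3 motifs was found in the Psmb10 window. A match is a description of letters only.

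Levels of the 10 genes differed widely when given per kilobase of annotated exon. The length used merges the exons of all annotated transcripts of a gene. It can exceed the length of the transcripts expressed, so the order of the genes is approximate. In PBS tumours B2m was highest, with a mean of 1790 CPM per kilobase, followed by H2-D1 with 567, H2-K1 with 222 and Tapbp with 117. The immunoproteasome subunits and the transporter chains stood lower, from 64.1 CPM per kilobase for Psmb10 to 21.3 for Psmb9, and Nlrc5 was lowest with 17.8. With tretinoin+ICT the same gene was highest and the same lowest, at 3499 and 38.5 CPM per kilobase.

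For each of the 10 genes, the group medians stood in the order PBS, tretinoin, ICT and tretinoin+ICT. None of the 10 genes had groups without overlap in any comparison of treatments. Few of all genes tested were higher without overlap. Against PBS the share was 1.39% with tretinoin, 0.389% with ICT and 3.77% with tretinoin+ICT. The combination gave 0.275% when set against ICT alone and 0.32% when set against tretinoin alone. The differences given below are log2 fold changes from edgeR's quasi-likelihood test with their standard errors (SE), and a gene passed at a Benjamini-Hochberg adjusted p below 0.05 over all genes tested. Tretinoin and ICT tumours were not compared with each other.

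**Figure D1:**
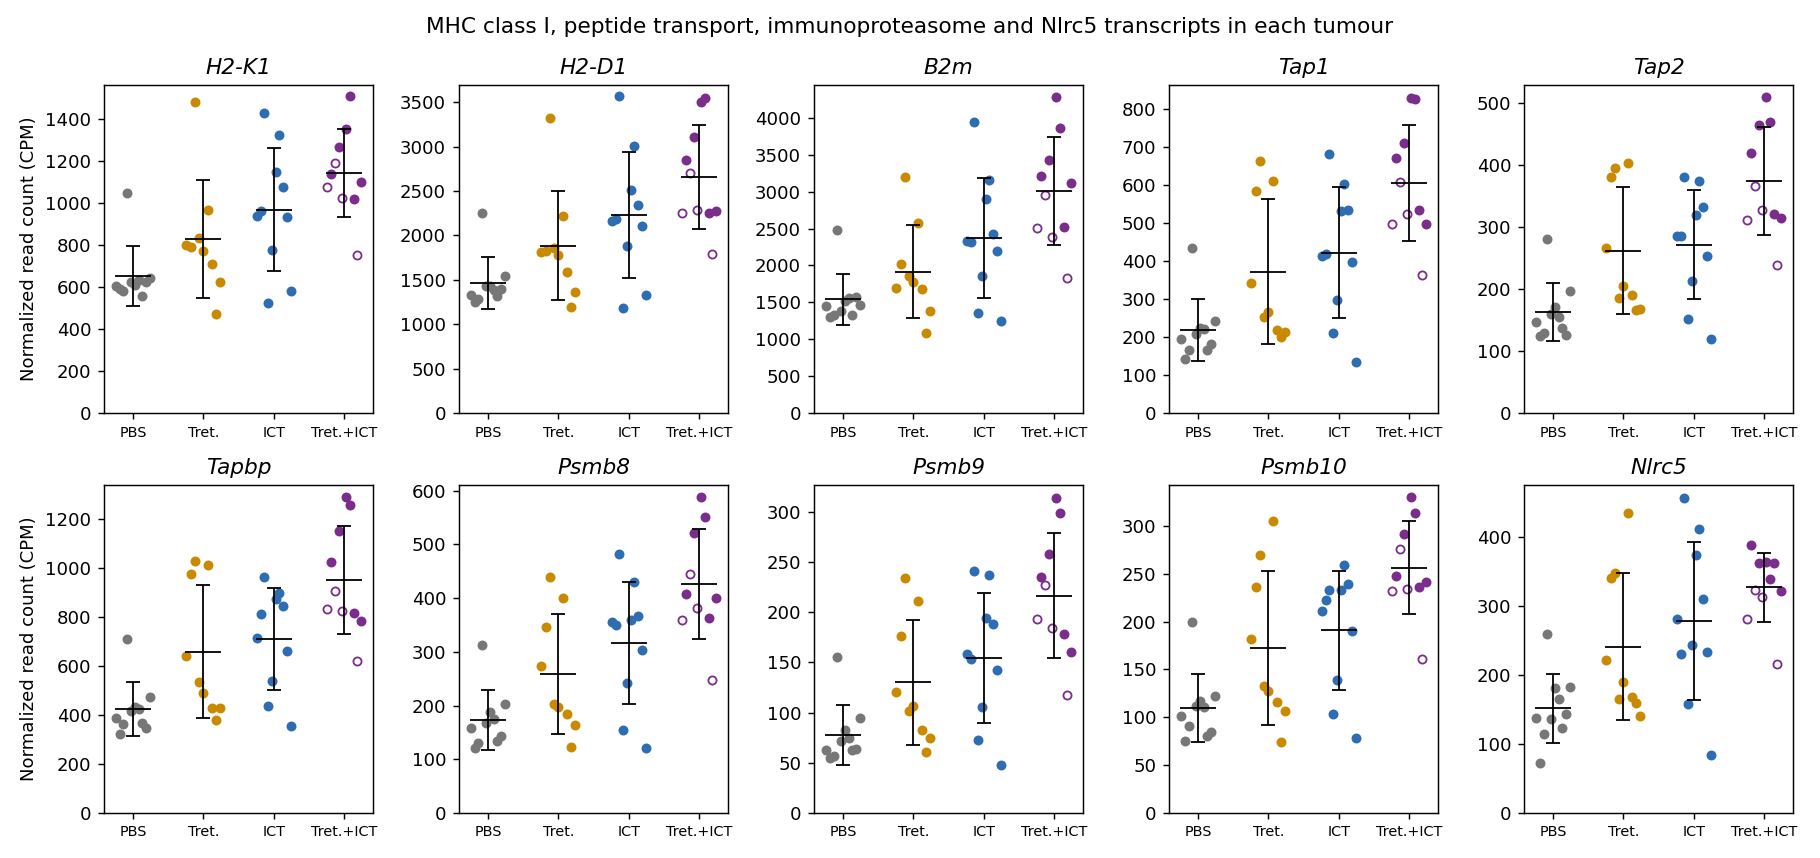
Normalised counts (CPM) of the 10 genes in each of the 39 tumours, by treatment group. Points are tumours, bars are the mean ± SD, and open circles in the tretinoin+ICT group are non-responders. PBS replicate 4 lies above the other PBS tumours for every gene, and most tretinoin+ICT tumours lie above every PBS tumour.

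The chains of the class I molecule were the most abundant of the 10 and had the smallest changes from PBS. B2m, the light chain of every class I molecule, ranged from 1305 to 2476 CPM in PBS tumours (median 1461), from 1082 to 3193 with tretinoin (median 1776), from 1251 to 3937 with ICT (median 2321) and from 1834 to 4285 with tretinoin+ICT (median 3036). H2-K1, a classical heavy chain, ranged from 556 to 1047 CPM with PBS (median 617), from 474 to 1478 with tretinoin (median 791), from 523 to 1425 with ICT (median 948) and from 751 to 1509 with tretinoin+ICT (median 1118). Of the tretinoin+ICT tumours, 8 lay above every PBS tumour for B2m and 7 for H2-K1. H2-D1, also a classical heavy chain, had medians of 1392, 1817, 2174 and 2496 CPM in the same order of groups, and 8 of 10 tretinoin+ICT tumours above every PBS tumour. The highest PBS tumour for all 3 was the same one, PBS replicate 4.

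The genes of peptide transport and loading spread further apart. Tap1, a chain of the TAP transporter, ranged from 144 to 436 CPM with PBS (median 202), from 199.8 to 663 with tretinoin (median 267), from 135 to 682 with ICT (median 416) and from 363 to 829 with tretinoin+ICT (median 572). The tretinoin tumours fell apart, with 3 of 9 at 583 CPM or more and the other 6 at 343 CPM or less. Tap2, the partner chain, had medians of 151, 204, 286 and 347 CPM in the same order. Tapbp, which encodes tapasin, had medians of 403, 535, 764 and 870.1 CPM. For all 3 of these genes, 9 of the 10 tretinoin+ICT tumours exceeded the highest PBS tumour.

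Among the immunoproteasome subunits, Psmb9 (the subunit LMP2) had the lowest level per kilobase. On the CPM scale it ranged from 55.2 to 156 CPM with PBS (median 67.7), from 60.6 to 235 with tretinoin (median 107), from 47.3 to 241 with ICT (median 156) and from 117 to 314 with tretinoin+ICT (median 210.4). Psmb8 (LMP7) had medians of 162, 203, 353 and 405 CPM, and Psmb10 (MECL-1) of 106, 133, 217 and 244 CPM. The highest PBS tumour lay above the median of the tretinoin tumours for all 3 subunits, and 9 of 10 tretinoin+ICT tumours lay above it.

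Nlrc5, the class I transactivator, ranged from 72.6 to 259 CPM with PBS (median 140.1), from 141 to 435 with tretinoin (median 189), from 84.0 to 456 with ICT (median 262) and from 216 to 388 with tretinoin+ICT (median 331). Its highest value was in an ICT tumour and not in a tretinoin+ICT tumour, unlike those of Tap1, Tap2, Tapbp and the 3 immunoproteasome subunits. The SD of Nlrc5 was 49.8 CPM with tretinoin+ICT and 49.9 CPM with PBS, against 114 CPM with ICT and 106 CPM with tretinoin.

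Tretinoin alone was compared with PBS to see whether the drug changes these transcripts without checkpoint antibodies. All 10 genes had higher fitted levels, with log2 fold changes between 0.33 for B2m and 0.78 for Tap1 and a median of 0.66, against a median of 0.01 over the 14340 genes tested. The transport and loading genes Tap1, Tap2 and Tapbp passed the test, 3 of the 10, while 11.5% of all genes tested were higher with tretinoin at the same threshold. Tap2 rose by a log2 fold change of 0.70 (SE 0.21, adjusted p = 0.0252, edgeR), and 9 of 9 tretinoin tumours lay above the PBS median. Tapbp rose by 0.64 (SE 0.21, adjusted p = 0.0364) and Tap1 by 0.78 (SE 0.27, adjusted p = 0.0482), each with 8 of 9 tumours above the PBS median. Psmb9 (0.75, adjusted p = 0.0506) and Nlrc5 (0.68, adjusted p = 0.0541) missed the threshold narrowly. The chains had the smallest differences, 0.36 for H2-K1 (adjusted p = 0.124), 0.38 for H2-D1 (adjusted p = 0.0868) and 0.33 for B2m (adjusted p = 0.163).

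DESeq2 called 5 of the 10 genes, against 11.6% of the genes it tested. The tretinoin result depended on single tumours. All 10 genes passed without PBS replicate 4, 9 without tretinoin replicate 8, 6 without tretinoin replicate 9 and 5 without tretinoin replicate 7. PBS replicate 4 was the highest PBS tumour over the 10 genes, and tretinoin replicate 8 the lowest of its group. Leaving out either raises the differences by itself. None passed without tretinoin replicate 2, 3 or 6, the 3 tumours with the highest levels, and 1 passed without PBS replicate 1, 2, 3, 5, 6, 7, 8 or 9. Log2 fold changes of the 10 genes stayed above 0 each time, with medians between 0.52 and 0.78. Within pairs of name series the 10 genes were also higher in all 4 pairs, with medians of 0.73 and 0.83 for series 3 against the PBS series and 0.38 and 0.50 for series 7. The lowest single value was 0.02 for H2-K1, and only series 3 against series 5 had genes that passed, 6 of 10. For the fits without 1 tumour and the pairs of series, the shares of all genes that passed are not given here. Ptprc, the leukocyte marker, had a log2 fold change of 0.14 (adjusted p = 0.562) with tretinoin, and 1 of 6 macrophage and monocyte markers and 0 of 7 T cell markers passed.

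With ICT alone, all 10 genes rose against PBS, while 14.1% of all 14155 genes tested were higher. Log2 fold changes ran from 0.58 for H2-K1 (SE 0.16, adjusted p = 0.0178) to 0.99 for Psmb9 (SE 0.26, adjusted p = 0.0132), with a median of 0.78 against -0.02 over all genes. Tapbp had the smallest adjusted p (0.74, SE 0.17, adjusted p = 0.00709), and 6 of 10 ICT tumours lay above every PBS tumour for it. Tap1 rose by 0.95 (SE 0.25, adjusted p = 0.0133) and Nlrc5 by 0.88 (SE 0.25, adjusted p = 0.0196). At least 1 ICT tumour lay below every PBS tumour for 7 of the 10 genes.

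The ICT result held in each of 20 fits without 1 tumour, all with 10 of 10 genes passing, and DESeq2 called all 10, against 14.2% of the genes it tested. Without ICT replicates 3 and 7 together, the ICT tumours with the highest mean over the 10 genes, only Tapbp passed, and the log2 fold changes ran from 0.41 to 0.77. Medians in the 4 pairs of name series lay between 0.66 and 0.84, with 3 of 10 genes passing for series 8 against series 5 and none in the other 3 pairs. The shares of all genes that passed in these pairs and in the fits without tumours are not given here. Markers of other cells moved with the result. All 6 macrophage and monocyte markers rose with ICT, the sum of the list going from 1916 to 3012 CPM with PBS (median 2067) to 2113 to 4497 CPM with ICT (median 3024). So did 3 of 3 neutrophil markers (median 1.13) and 3 of 4 NK cell markers (median of the list 0.77), while 0 of 7 T cell markers passed. Ptprc had a log2 fold change of 0.57 (adjusted p = 0.0723), and the part of these cells in the result was not tested.

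Tretinoin+ICT gave the largest changes from PBS. All 10 genes rose, against 25.7% of the 14265 genes tested, and 7 of them also had a log2 fold change of at least 1, against 5.45% of all genes. The median was 1.20 for the 10 genes and -0.01 for all genes. Psmb9 rose by 1.49 (SE 0.20, adjusted p = 9.18e-06), a 2.81-fold difference, and Tap1 by 1.48 (SE 0.19, adjusted p = 4.37e-06), a 2.80-fold difference. Psmb8, Psmb10, Tap2, Tapbp and Nlrc5 rose by 1.32, 1.24, 1.21, 1.18 and 1.12. The 3 chains rose by less, H2-K1 by 0.82 (SE 0.12, adjusted p = 1.3e-05), H2-D1 by 0.88 (SE 0.13, adjusted p = 1.43e-05) and B2m by 0.98 (SE 0.14, adjusted p = 1.38e-05).

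All 10 tretinoin+ICT tumours lay above the PBS median for all 10 genes. For each gene, 9 of 10 PBS tumours lay below every tretinoin+ICT tumour. All 10 genes passed in every fit without 1 tumour and in each of the 4 pairs of name series, where medians lay between 1.17 and 1.25. The shares of all genes that passed in these fits and pairs are not given here. Ptprc rose as well, by 0.72 (adjusted p = 0.000656), as did 6 of 6 macrophage and monocyte markers (median 0.63), 4 of 4 NK cell markers (median 1.08) and 3 of 3 neutrophil markers (median 1.31), while 0 of 7 T cell markers passed. The macrophage and monocyte list summed to between 2771 and 4097 CPM (median 3397). The part of these cells in the result was not tested.

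**Figure D2:**
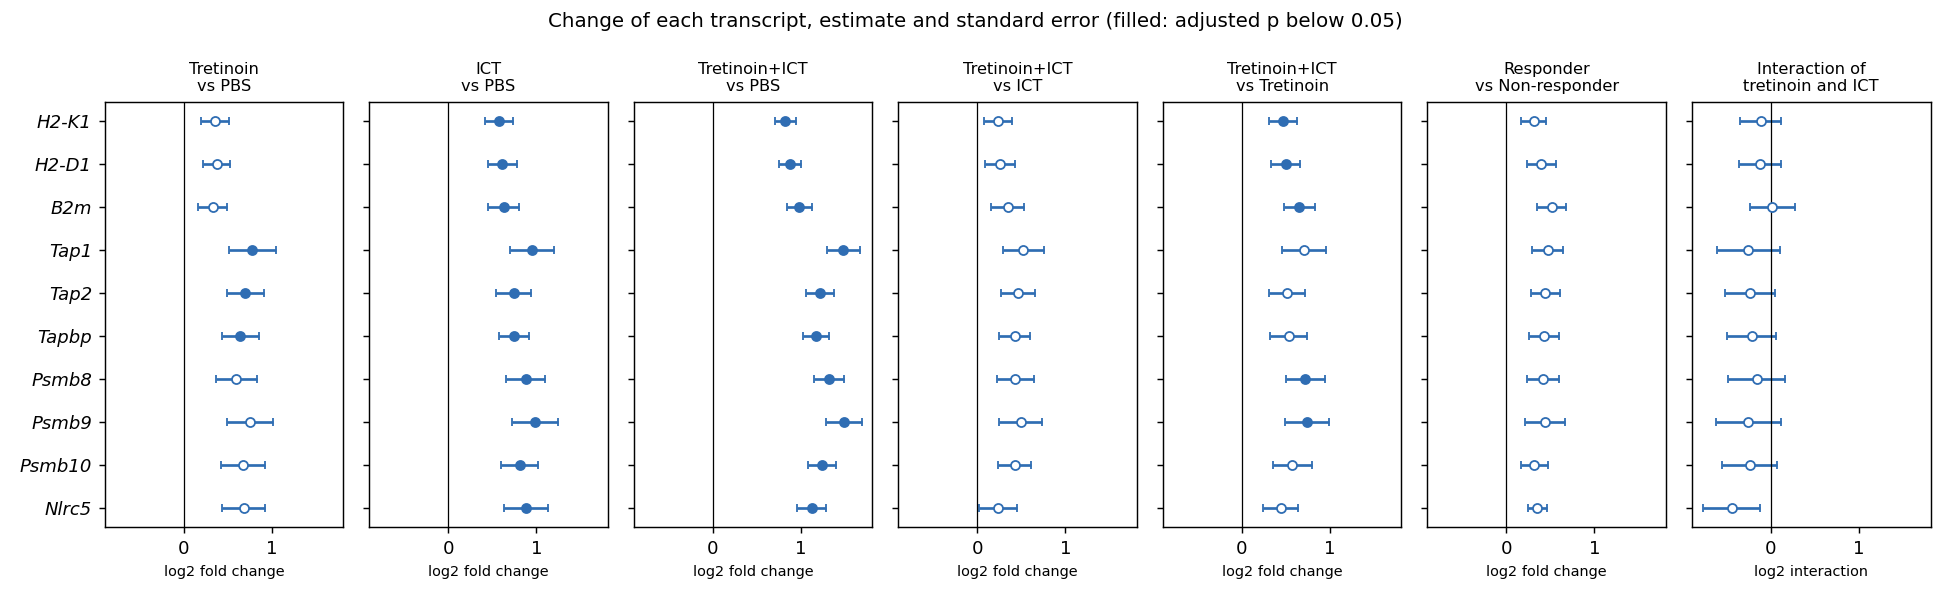
Log2 fold changes of the 10 genes in the treatment comparisons, between responders and non-responders and for the interaction, with SE bars; filled points have an adjusted p below 0.05. All 10 points are filled for ICT and for tretinoin+ICT against PBS, 3 for tretinoin against PBS, 5 for tretinoin+ICT against tretinoin, and none for tretinoin+ICT against ICT, for responders or for the interaction.

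What either agent adds to the other was read from the next 2 comparisons, which share the tretinoin+ICT tumours. Against tretinoin alone, 5 of the 10 genes were higher with the combination, H2-K1, H2-D1, B2m, Psmb8 and Psmb9, while 12.3% of all 14393 genes tested were. Their log2 fold changes were 0.47, 0.50, 0.65, 0.72 and 0.74, with adjusted p values from 0.0173 for B2m to 0.0448 for H2-K1. Tap1 (0.70, adjusted p = 0.051), Tapbp (0.53, adjusted p = 0.0709), Tap2 (0.51, adjusted p = 0.0714), Psmb10 (0.57, adjusted p = 0.0732) and Nlrc5 (0.44, adjusted p = 0.113) did not pass. The 10 genes had a median of 0.55.

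This count too turned on single tumours. It was 10 without tretinoin replicate 6 and 9 without tretinoin replicate 3 or tretinoin+ICT replicate 9. It was 2 without tretinoin replicate 1 or 4 or tretinoin+ICT replicate 2 or 3, and 1 without tretinoin replicate 5, 7, 8 or 9 or tretinoin+ICT replicate 4, 6 or 7. Tretinoin replicates 3 and 6 were the highest of their group over the 10 genes, and tretinoin+ICT replicate 9 the lowest of its own. Leaving out any of these raises the differences by itself. DESeq2 called 9 of the 10 genes, all but Nlrc5, against 12.8% of the genes it tested. Among the pairs of name series, 2 genes passed for series 2 against series 7 and none in the other 3 pairs. For these pairs and the fits without 1 tumour, the shares of all genes that passed are not given here. Ptprc was higher by 0.59 (adjusted p = 0.0187) and 4 of 6 macrophage and monocyte markers were higher.

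Against ICT alone, none of the 10 genes passed, with edgeR or with DESeq2, while 1.57% of all 14202 genes tested were higher with edgeR and 2.6% with DESeq2. The 10 differences were all above 0, from 0.23 for Nlrc5 (SE 0.21) to 0.52 for Tap1 (SE 0.23), with a median of 0.42. At an unadjusted p below 0.05, 4 genes were higher, Tap1, Tap2, Tapbp and Psmb10, against 9.58% of all genes. For each of the 10 genes, 9 of 10 tretinoin+ICT tumours lay above the ICT median. The approximate 95% interval of the difference ran from 0.07 to 0.97 for Tap1 and from -0.18 to 0.65 for Nlrc5. For Tap1, ICT tumours had the wider spread on the log2 scale, with an SD of 0.73 against 0.37 with tretinoin+ICT. In CPM these SDs were 173 and 152, at means of 423 and 607 CPM. Tapbp had the reverse order in CPM, with an SD of 208 with ICT and 222 with tretinoin+ICT. On the log2 scale its SDs were 0.49 and 0.34. Without ICT replicates 3 and 7 together, B2m, Tap1, Tap2 and Tapbp passed, with log2 fold changes of 0.54, 0.73, 0.61 and 0.54. Both were the ICT tumours highest over the 10 genes, so leaving them out raises these differences by itself. The share of all genes that passed in that fit is not given here. No fit without 1 tumour had a gene that passed. Ptprc differed by 0.15 (adjusted p = 0.729) and none of the macrophage and monocyte markers passed.

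Whether the effect of tretinoin differed with and without ICT was tested as an interaction over all 39 tumours. None of the 10 genes passed, none had an unadjusted p below 0.05 and DESeq2 called none, while 0.307% of the 14977 genes tested passed in either direction with edgeR and 0.448% with DESeq2. Interaction terms ran from -0.45 for Nlrc5 (SE 0.33, adjusted p = 0.697) to 0.02 for B2m (SE 0.26, adjusted p = 0.991), with a median of -0.23 on the log2 scale. These errors were too large to tell a moderate interaction in either direction from none.

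Responders and non-responders were compared within the tretinoin+ICT group. All 10 genes had higher fitted levels in responders, with log2 fold changes from 0.31 for H2-K1 to 0.52 for B2m and a median of 0.42. None passed in edgeR, and 0% of the 14604 genes tested were higher at that threshold. At an unadjusted p below 0.05, 7 of the 10 genes were higher (all but H2-K1, Psmb9 and Psmb10), against 13.4% of all genes. DESeq2 called 2, B2m (adjusted p = 0.0285) and Nlrc5 (adjusted p = 0.0393), against 6.74% of the genes it tested.

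B2m stood at 2502, 2950, 2387 and 1834 CPM in the 4 non-responders, replicates 1, 3, 5 and 9. In the 6 responders it ranged from 2520 to 4285 CPM, with a median of 3318. Of the responders, 5 lay above every non-responder and the sixth, replicate 8, lay among them. The edgeR test gave a log2 fold change of 0.52 (SE 0.16, adjusted p = 0.107), and without replicate 8 B2m passed with an adjusted p of 0.0348. Leaving out the responder that lay among the non-responders sets the groups apart by itself. None of the 10 genes passed in any other fit without 1 tumour. The share of all genes that passed without replicate 8 is not given here.

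Nlrc5 stood at 281, 323, 313 and 216 CPM in the same non-responders and between 322 and 388 CPM in the responders, with a median of 362. Here too 5 of 6 responders lay above every non-responder, and the lowest responder, replicate 10, was level with the highest non-responder. Its log2 fold change was 0.35 (SE 0.11, adjusted p = 0.1, edgeR), with an SD of 22.8 CPM among responders and 48.2 CPM among non-responders. For the other 8 genes, 3 or 4 of the 6 responders lay above every non-responder.

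Non-responder replicate 9 was the lowest tretinoin+ICT tumour for all 10 genes. Without it the log2 fold changes of the 10 genes ran from 0.18 to 0.40, and none passed. Response was spread unevenly over the name series. In series 2, with 2 responders and 3 non-responders, the differences ran from 0.12 for Psmb10 to 0.40 for Tap2, and in series 4, with 4 responders and replicate 9 as the only non-responder, from 0.66 to 0.95. With series as a covariate they ran from 0.38 to 0.59, with adjusted p values between 0.129 and 0.231. Markers of other cells had higher fitted levels in responders too. Ptprc differed by 0.44 (adjusted p = 0.184), the 7 T cell markers had a median of 0.67, the 4 NK cell markers of 0.61, the 3 neutrophil markers of 0.68 and the 6 macrophage and monocyte markers of 0.31, and none of them passed. Among the T cell markers Trac differed by 0.77 and Cd4 by 0.80 (adjusted p = 0.0841 for both, edgeR). The sum of macrophage and monocyte markers ran from 3341 to 4097 CPM in responders and from 2771 to 3171 CPM in non-responders. Of all 14604 genes tested, 1.89% were higher in responders without overlap and 3.84% were lower, and the sum was not tested. The part of these cells was not tested.

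Within each treatment the 10 genes moved together from tumour to tumour. Over 39 tumours, after the mean of each group was taken off the log2 values, Pearson's r between pairs of the 10 genes ran from 0.78 for H2-K1 with Nlrc5 to 0.987 for Tap1 with Tap2. Tap1 and Psmb9, which share a promoter and 212 bases of exon, had an r of 0.985. Psmb9 was closest to the mean of the other 9 genes (r = 0.991), followed by Psmb8 (0.989) and Tap1 (0.987). Nlrc5 was farthest from it (0.904), behind H2-K1 (0.923), H2-D1 (0.931) and B2m (0.940). These correlations are descriptions, since the tumours of a group share normalization and differ in their mix of cells.

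Tumours of the same treatment lay far apart. PBS replicate 4 stood above the mean of its group by 0.85 on the log2 scale over the 10 genes, and PBS replicate 2 was lowest of its group by the same mean (-0.41). With ICT, replicate 3 stood above its group by 0.68 and replicate 10 stood at -1.13. Tretinoin replicate 3 stood at 0.83 and tretinoin replicate 8 at -0.75, and tretinoin+ICT ran from 0.44 for replicate 6 to -0.65 for replicate 9.

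Markers of leukocytes moved with this spread. Ptprc was at its highest of the group in PBS replicate 4 (404 CPM), tretinoin replicate 3 (411 CPM), ICT replicate 3 (761 CPM) and tretinoin+ICT replicate 6 (581 CPM). It was at its lowest of the group in PBS replicate 2 (168 CPM), ICT replicate 10 (161 CPM) and tretinoin+ICT replicate 9 (261 CPM). Among tretinoin tumours the order differed, since replicate 8, lowest over the 10 genes, had 225 CPM, 7th of the 9, and replicate 9 was lowest for Ptprc with 180.3 CPM. Fibroblast markers had the highest sums of their groups in PBS replicate 2 (3457 CPM), ICT replicate 10 (3218 CPM) and tretinoin+ICT replicate 9 (2881 CPM), and with tretinoin replicate 8 (3263 CPM) came just behind replicate 4 (3272 CPM). Only 2 of the 4 listed fibroblast genes were found, Pdgfra and Col1a1, and Col1a1 made up most of the sum in PBS tumours. Whether the tumour's own cells expressed them was not tested. Within groups, Ptprc correlated with the mean of the 10 genes at r = 0.883 (Spearman's rho 0.834, 39 tumours). Its part in the spread was not tested.

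**Figure D3:**
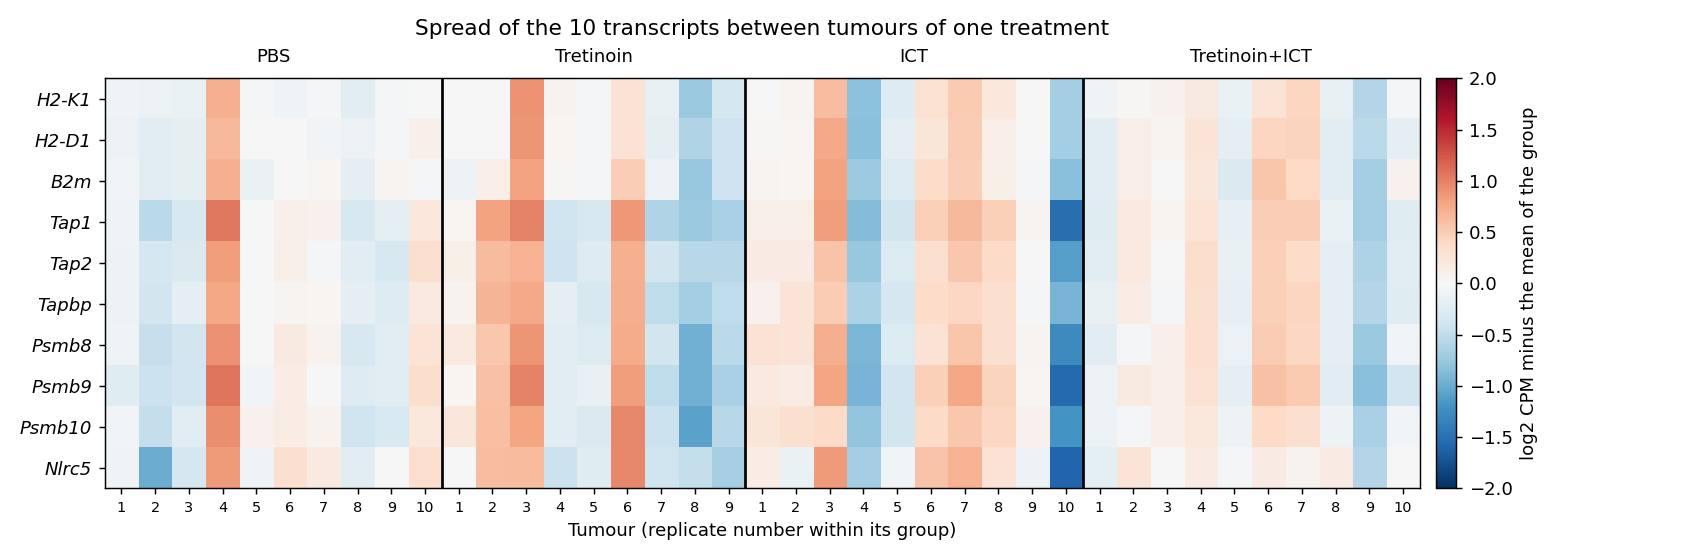
Heat map of the 10 genes in the 39 tumours as the difference, on the log2 scale, from the mean of the tumour's own treatment group. Columns are tumours by replicate number, and rows are genes; whole columns are high (PBS replicate 4, tretinoin replicate 3, ICT replicate 3) or low (ICT replicate 10, tretinoin+ICT replicate 9).

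Of 9439 genes with a mean of at least 10 CPM, those whose within-group pattern was most like the mean of the 10 genes included Hk3 (r = 0.983), Pla2g16 (r = 0.981), Zbp1 (r = 0.980) and Irf1 (r = 0.979), over 39 tumours. Hk3 encodes a hexokinase, Pla2g16 a phospholipase, Zbp1 a sensor of Z-form nucleic acids, and Irf1 a transcription factor of interferon signalling. The 4 genes were picked for a high r, so the lower r of Ptprc (0.883) follows from that choice.

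To see whether the immunoproteasome subunits rose relative to the constitutive subunits they replace, 2 ratios were taken in each tumour, Psmb9 to Psmb6 and Psmb10 to Psmb7. The partner of Psmb8 was not analysed here. The constitutive subunits were steady, with group means of 131 to 140 CPM for Psmb6 and 89.8 to 94.4 CPM for Psmb7, and neither passed in any comparison. Differences were tested on the log2 scale by permutation tests (two-sided, and exact if either group held under 10 tumours), with p adjusted over the 12 tests.

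The ratio of Psmb9 to Psmb6 had a mean of 0.562 ± 0.229 (SD, n = 10) with PBS, 0.999 ± 0.507 (n = 9) with tretinoin, 1.12 ± 0.505 (n = 10) with ICT and 1.56 ± 0.445 (n = 10) with tretinoin+ICT. PBS tumours ran from 0.354 to 1.16 and tretinoin+ICT tumours from 0.898 to 2.24. The difference from PBS on the log2 scale was 0.76 with tretinoin (adjusted p = 0.0226, exact permutation test), 0.91 with ICT (adjusted p = 0.0197) and 1.497 with tretinoin+ICT (adjusted p = 0.00048, both permutation tests). Tretinoin+ICT was above tretinoin by 0.74 (adjusted p = 0.0226, exact), and its difference of 0.59 from ICT did not pass (adjusted p = 0.0509, permutation test).

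The ratio of Psmb10 to Psmb7 stood at 1.16 ± 0.378 with PBS, 1.90 ± 0.929 with tretinoin, 2.13 ± 0.735 with ICT and 2.79 ± 0.472 with tretinoin+ICT. All 3 treated groups were above PBS, by 0.63 (adjusted p = 0.0389, exact permutation test), 0.84 (adjusted p = 0.0102, permutation test) and 1.30 (adjusted p = 0.00048, permutation test) on the log2 scale. Tretinoin+ICT was above ICT by 0.46 (adjusted p = 0.0389, permutation test) and above tretinoin by 0.68 (adjusted p = 0.0226, exact). With medians in place of means, the difference of tretinoin from PBS (adjusted p = 0.0601, exact permutation test) and that of tretinoin+ICT from ICT (adjusted p = 0.0569, permutation test) did not pass, nor did that of tretinoin+ICT from tretinoin in the Psmb9 ratio (adjusted p = 0.0741, exact).

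Responders had the higher mean of both ratios, 1.75 against 1.28 for Psmb9 to Psmb6 and 3.03 against 2.44 for Psmb10 to Psmb7. Neither difference passed, with log2 differences of 0.44 (adjusted p = 0.114) and 0.32 (adjusted p = 0.0727) in exact permutation tests of 6 against 4 tumours. Of the 12 tests, 9 passed.

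**Figure D4:**
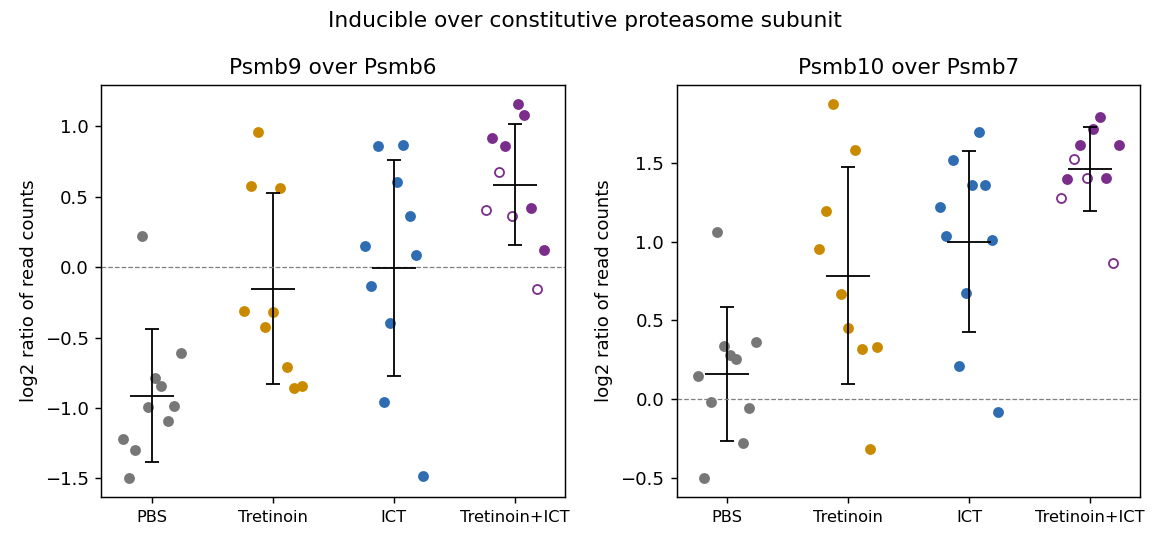
Ratio of the inducible to the constitutive catalytic subunit, Psmb9 to Psmb6 and Psmb10 to Psmb7, in each tumour by treatment group (log2 scale). Points are tumours, open circles are non-responders and bars are the mean ± SD; both ratios are lowest with PBS and highest with tretinoin+ICT.

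The rest of the pathway was read from lists of related genes. Over all genes tested, 11.5% were higher with tretinoin, 14.1% with ICT and 25.7% with tretinoin+ICT against PBS. The counts of every list below stand beside these shares, and no list was tested against them. Of 18 other class I chain genes tested, 6 were higher with tretinoin, 15 with ICT and 17 with tretinoin+ICT against PBS, and none was lower. H2-T23, the non-classical chain Qa-1, rose by 0.86 with ICT (SE 0.22, adjusted p = 0.0104) and by 1.43 with tretinoin+ICT (SE 0.20, adjusted p = 1.24e-05). The median of the list was 0.63 with ICT and 0.89 with tretinoin+ICT. Many of these genes have near-identical copies, so their single values are uncertain.

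Of 8 other genes of peptide loading and trimming, 1 was higher and 1 lower with tretinoin, 3 higher and 1 lower with ICT, and 3 higher and 2 lower with tretinoin+ICT. Over all genes 8.95% were lower with tretinoin, 7.15% with ICT and 24.5% with tretinoin+ICT. Tapbpl, which encodes the tapasin-like peptide editor TAPBPR, rose with all 3, by 0.79 (SE 0.23, adjusted p = 0.0214), 0.78 (SE 0.19, adjusted p = 0.00862) and 1.19 (SE 0.14, adjusted p = 1.54e-06). The chaperone genes Calr and Pdia3 rose by 0.39 and 0.37 with tretinoin+ICT, while the peptidase genes Thop1 and Ide changed by -0.41 and -0.33.

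Of 9 other subunits of the 20S core, 0 were higher with tretinoin, 2 with ICT and 4 with tretinoin+ICT, the largest change being 0.30 for Psma4 with the combination. The shares of all genes higher were 11.5%, 14.1% and 25.7% in the same order. Of 8 activator and assembly genes, 0 were higher or lower with tretinoin, and 4 were higher and 1 lower with ICT. With tretinoin+ICT, 4 were higher and 4 lower. The higher ones were led by Psme1 (0.94, SE 0.12, adjusted p = 5.29e-06) and Psme2 (0.83, SE 0.13, adjusted p = 2.4e-05), which encode the interferon-inducible activator PA28.

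Among 12 transcription regulators of class I genes, 4 were higher with tretinoin, 5 with ICT and 7 with tretinoin+ICT, and 1, Nfyb, was lower with the combination. Irf1 ranged from 143 to 475 CPM with PBS (median 217), from 277 to 799.8 with tretinoin (median 393), from 144 to 899.5 with ICT (median 491) and from 535 to 1328 with tretinoin+ICT (median 796). Every tretinoin+ICT tumour therefore lay above every PBS tumour for Irf1, which was not so for any of the 10 genes. It rose by 1.01 with tretinoin (SE 0.25, adjusted p = 0.01), by 1.02 with ICT (SE 0.27, adjusted p = 0.0127) and by 1.86 with both (SE 0.20, adjusted p = 1.29e-06).

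Of 6 genes of interferon gamma signalling tested, 2 were higher with tretinoin, 4 with ICT and 6 with the combination. Ifngr1, a receptor chain, rose with tretinoin by 0.50 (SE 0.06, adjusted p = 5.04e-06) and had a difference of 0.20 with ICT (adjusted p = 0.13). Of 6 genes of type I interferon signalling, 2, 5 and 6 were higher, among them the receptor chain gene Ifnar2, by 0.45 with tretinoin (adjusted p = 0.0015), 0.45 with ICT (adjusted p = 0.00536) and 0.67 with both (adjusted p = 2.27e-06). In none of these lists did a gene pass between tretinoin+ICT and ICT or between responders and non-responders.

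**Figure D5:**
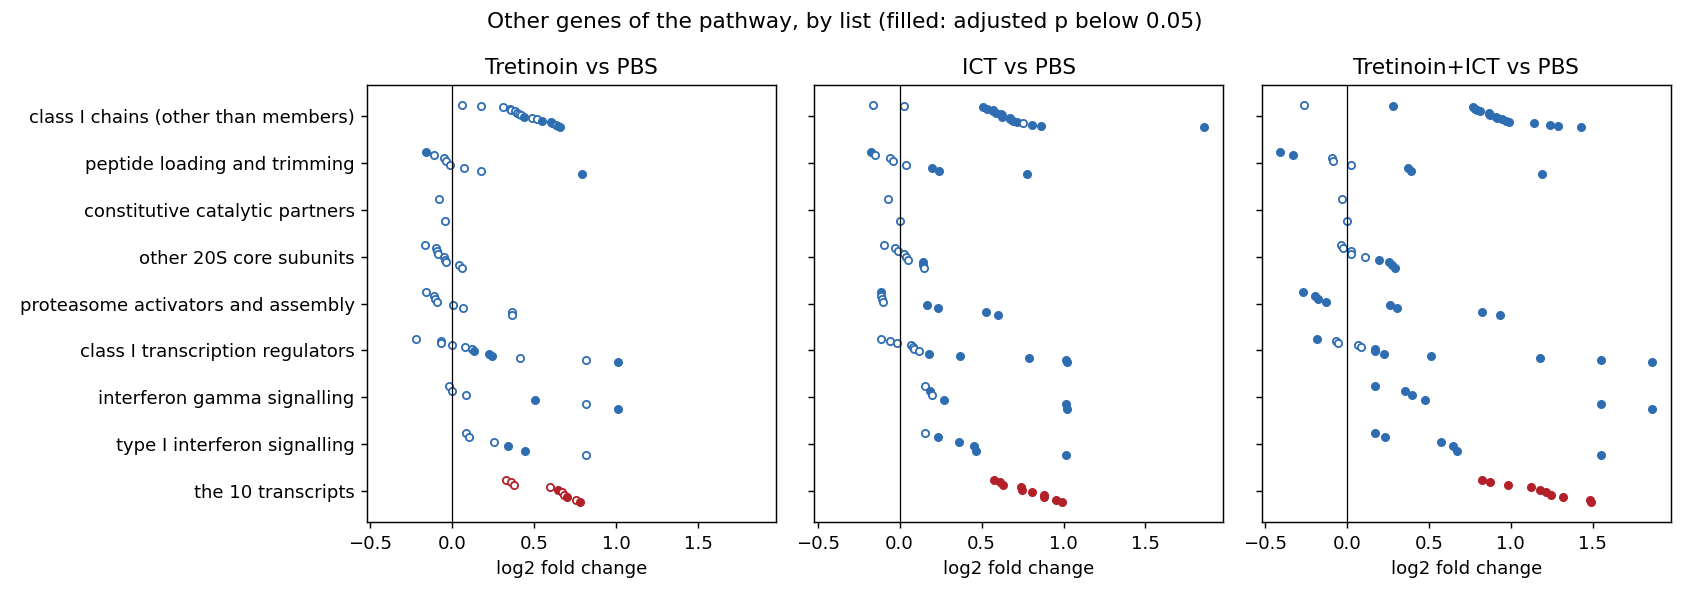
Log2 fold changes against PBS of the 10 genes (red) and of the other genes in the related lists (blue), 1 point a gene (a gene on several lists is shown in each); filled points have an adjusted p below 0.05. The 10 genes lie mostly above the 20S core subunits, which stay near 0, and Irf1 has the largest change among the regulators.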

How the data were processed

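The authors sequenced single-end reads of 100 bases from 39 tumours on a NovaSeq instrument, aligned them with HISAT2 2.0.4 to a mouse genome they name mm11, and deposited raw read counts per gene, without normalization, made with SummariseOverlaps. The submitters' processing notes also name bcl2fastq 2.20.0.422. Levels are CPM on TMM library sizes over all tumours (log2 CPM with a prior count of 2), and exon lengths and coordinates come from GENCODE M21, which 36719 of 39676 identifiers (92.55%) matched with their version.

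R 4.3.3 with edgeR 4.0.16 fitted each comparison on the tumours of its groups alone (TMM, filterByExpr, robust quasi-likelihood test, Benjamini-Hochberg adjustment, threshold 0.05), and the interaction on all 39. The SE is the absolute log2 fold change over the square root of F, and approximate 95% intervals span 1.96 SE either side. Ratios used counts with 0.5 added to each, tested by permutation with 100000 resamples or exactly (Python 3.11.15, scipy 1.17.1). The scripts were tested on simulated data. Alternatives were DESeq2 1.42.0, its size factors, other filters, a fold change minimum of 1 on the log2 scale as in the study's methods, all tumours in 1 fit, name series, and leaving out tumours. Leaving out each tumour in turn between treatments was added after the data were seen.

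The 10 genes and the lists were chosen with earlier results of these data known. Genes of the lists are named where they had the largest changes that passed, or belong to interferon signalling. The labels do not say whether replicates came from separate experiments, so p-values measure the spread between these tumours. Of 83 listed pathway genes, 68 were found, and the others were not analysed here. A gene that met this naming rule is not reported here.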

Additional observations from a re-analysis of the deposited data

Results flagged for a closer look

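Of 60 pairs of a gene and a group (the 10 genes in the 4 treatment groups, responders and non-responders), 8 had a tumour far from the others of its group. The measure is the gap to the nearest tumour over the range of the group on the log2 CPM scale, and chance flags about 1 in 20 groups. The same tumour, PBS replicate 4, stood highest and apart in 7 of them, with ratios of 0.770 for H2-K1, 0.641 for H2-D1, 0.707 for B2m, 0.527 for Tap1, 0.511 for Tapbp, 0.481 for Psmb9 and 0.504 for Psmb10. Non-responder replicate 9 stood lowest and apart in the tretinoin+ICT group for Psmb10, with a ratio of 0.505. PBS replicate 4 had the highest Ptprc of its group (404 CPM) and replicate 9 the lowest of its own (261 CPM), and the part of leukocytes in either was not tested.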

How the results depend on the processing

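The 10 genes passed between tretinoin+ICT and PBS under every alternative run on all tumours, except that the fold change minimum left 7, and none passed for the interaction under any. With the fold change minimum, 0 genes passed for tretinoin against PBS (3 without it), for ICT against PBS (10) and for tretinoin+ICT against tretinoin (5). DESeq2 called 5, 10 and 9 in the same 3 comparisons and 2 between responders and non-responders (edgeR 0). With no filter on low counts 0 passed for tretinoin against PBS and 1 for tretinoin+ICT against tretinoin, and with all 39 tumours in 1 fit 5 passed for tretinoin against PBS. Without ICT replicates 3 and 7 together, 1 gene passed for ICT against PBS and 4 for tretinoin+ICT against ICT. The interaction terms then turned to 0.0604 for H2-K1, 0.0819 for H2-D1 and 0.0240 for Psmb8, with adjusted p values of 0.942, 0.92 and 0.988. Both tumours were the highest of the ICT group over the 10 genes, so leaving them out lowers that group by itself. With tumours left out one at a time, the number of genes that passed ran from 0 to 10 for tretinoin against PBS, from 1 to 10 for tretinoin+ICT against tretinoin and from 0 to 1 for responders, and stayed at 10 for ICT and for tretinoin+ICT against PBS and at 0 for tretinoin+ICT against ICT. The shares of all genes that passed in the fits without tumours are not given here, so these counts have no background. Without PBS replicate 4, tretinoin replicate 3 and ICT replicates 3 and 7, 10 of 12 ratio tests passed (9 with all tumours, 6 with medians). Psmb9 to Psmb6 then stood at 0.81 between tretinoin+ICT and ICT (adjusted p = 0.00965, exact permutation test). The tumours left out were the highest of their groups over the 10 genes, and none was taken from tretinoin+ICT. Leaving them out raises the differences of tretinoin+ICT from the other groups by itself, so this fit is no check of those differences. The causes of these changes were not tested. Responders could be compared with 4 tumours only, which limits what could be found there. No paired analysis was possible because replicates were numbered in accession order and their numbers tie no tumour to another.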
